A study of Homo sapiens with 27 samples.

Results

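Forced expression of LEF1 in a colorectal carcinoma line was followed from before induction to 72 h, and the 72 h arrays were compared with the 0 h arrays of the same line. The comparison rests on 4 of the series' 27 arrays, the 2 of the LEF1 line at 0 h and its 2 at 72 h, paired by their replicate numbers. The p-values take their spread from a fit over all 27 arrays, which include LS174T arrays labelled SNAI1. LS174T is a human colorectal carcinoma line that makes mucin and carries an activating mutation in beta-catenin. The LEF1 line holds a doxycycline-inducible mouse Lef1 transgene with an HA tag (mLef1-HA) in pN1-LS174T cells. Induction was with 0.1 µg/ml doxycycline, with fresh drug at 48 h. The single 24 h array of the LEF1 line (replicate 1) shows which changes were already visible at that time. A control line of pN1-LS174T cells with no overexpression, 2 arrays at 0 h and 1 at 72 h, serves as a check and was not subtracted. The labels carry the same doxycycline protocol on every sample, the control line included, so its difference may hold the drug as well as time in culture. The labels say neither whether replicates are separate cultures, so that p-values may measure technical spread only, nor whether the line is 1 clone. No LEF1 line array at 72 h without doxycycline was used, so within the line the transgene, the drug and the time in culture cannot be told apart.

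LEF1 belongs to the TCF/LEF family of DNA-binding proteins, which recruit beta-catenin to Wnt target genes. In the intestine, Wnt signalling keeps crypt cells in a progenitor state and restrains differentiation. Many direct targets encode inhibitors of the pathway itself, so that the response carries its own negative feedback.

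The values are log2 intensities of Illumina bead arrays after background correction and quantile normalization, so that a difference of 1 is a 2-fold difference in signal. The LEF1 line arrays detected 14766 to 15907 probes at a detection p under 0.01. Of 13 markers of colonic epithelium, all 13 were detected on all 4 arrays. Of 19 markers of other cell types, 15 were detected on none of the 4, among them PTPRC, PECAM1 and COL1A1. HBB was detected on 1 array, and FAP, ACTA2 and ALB on all 4. All 7 LEF1 line arrays, with control 0 h replicate 2 and 1 further control array, belong to a set whose detection p-values come in steps. The control 72 h array and control 0 h replicate 1 belong to the other set.

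Of 10215 genes tested, 3050 (29.9%) passed an adjusted p of 5% in limma, with the replicate number as a block. At 72 h, 1664 (16.3%) were higher and 1386 (13.6%) lower. With a change of at least 2-fold as well, 595 (5.82%) were higher and 459 (4.49%) lower. All 1664 higher and all 1386 lower genes moved the same way in both replicate pairs, as did 7888 of the 10215 tested. The calls were made on these same pairs, so their agreement was nearly fixed beforehand and is no separate support. Across genes, which are not independent replicates, the changes in the 2 pairs correlated at 0.827. The count of calls depended on each of the 4 arrays. It was 1390 without 0 h replicate 1, 1471 without 0 h replicate 2, 1499 without 72 h replicate 1 and 1536 without 72 h replicate 2. Without the replicate block it was 1993. Counts of list members below are therefore followed by their range when each of these 4 arrays was left out. Over all 10215 genes tested that range was 795 to 902 higher and 595 to 659 lower.

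**Figure D1:**
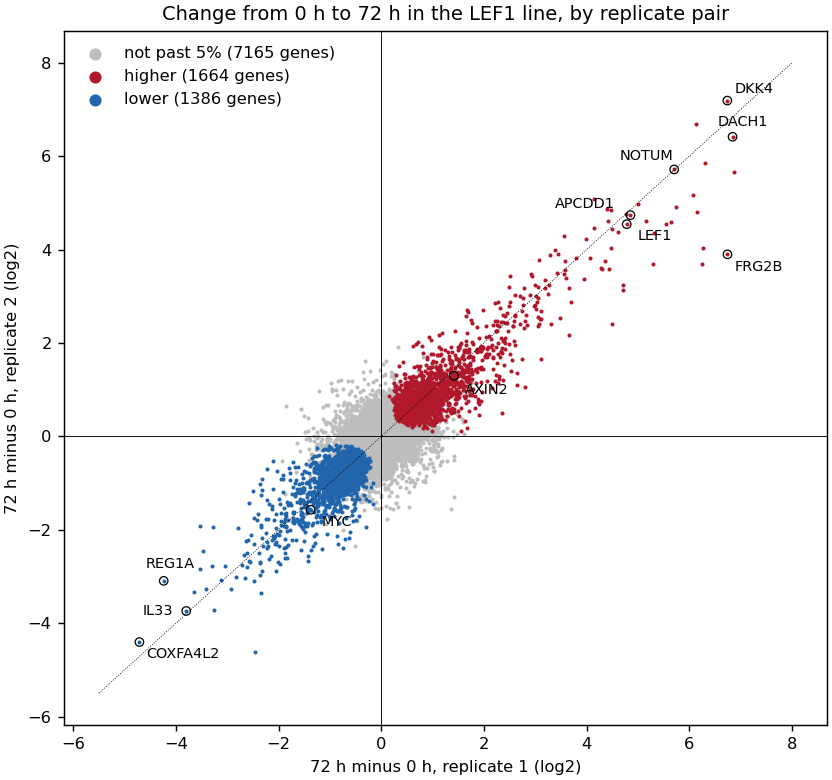
Change from 0 h to 72 h in replicate pair 1 (horizontal, log2) against pair 2 (vertical, log2), 1 point per gene for the 10215 genes tested, red where higher and blue where lower past an adjusted p of 5%. Called genes lie in the quadrants where both pairs have the same sign, which the call on these same pairs nearly ensures. The 2 pairs correlate at 0.827 across genes, and the dotted line marks equal change.

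The signal of the human LEF1 probes was among those that rose. LEF1 read 5.19 and 4.96 at 0 h in replicates 1 and 2, 4.88 and 4.68 at 6 h, 6.11 at 24 h and 9.97 and 9.50 at 72 h. The probe was not detected on either 0 h array and both 72 h arrays were far above every earlier one. Its signal at 72 h was at least 18.1-fold higher than at 0 h (log2 change 4.66, SE 0.306, adjusted p = 3.38e-06), with the higher of background and signal standing for 0 h. Such bounds hold on the background-corrected scale, and without background correction the LEF1 change was 3.02. The second LEF1 probe rose by 4.53. The control line read 4.71 and 4.60 at 0 h and 5.03 at 72 h. Whether these human probes also read the mouse transgene was not tested. At 24 h the LEF1 signal was 0.92 above 0 h in replicate 1, against 4.78 at 72 h in the same replicate.

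Among the 16 tested genes for TCF/LEF factors and beta-catenin partners, of 20 on the array, 5 (31.25%) rose and 0 fell. Over all genes tested 16.3% rose and 13.6% fell, and 2 to 4 members rose with 1 array left out. CTNNB1, which encodes beta-catenin, read 10.24 and 9.35 at 0 h, 11.03 at 24 h and 11.83 and 10.35 at 72 h. The 2 replicates stood about as far apart as the change itself, and each rose within its pair. The change was 1.29 (SE 0.197, adjusted p = 0.000886), and the call was lost without the replicate block (adjusted p = 0.0558). All 3 CTNNB1 probes rose, the others by 2.26 and 1.42. BTRC, a ubiquitin ligase subunit that recognises phosphorylated beta-catenin, rose by 1.04 (adjusted p = 0.00602), a call lost without 0 h replicate 2 or 72 h replicate 2 (adjusted p = 0.070 and 0.099), and the change was 0.50 without background correction. TLE2, a corepressor of TCF factors, rose by 0.61, and CHD8, a chromatin remodeller, by 0.56. TCF7L2, the main TCF of intestinal epithelium, changed by 0.53 (adjusted p = 0.208), with a detected signal on 1 of the 4 arrays. TCF7 and TCF7L1 did not reach the detection filter.

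Inhibitors of Wnt signalling were among the largest rises. Of 21 such genes on the array, 11 were tested. Of these 8 (72.7%) rose and 2 (18.2%) fell (8 and 1 to 2 with 1 array left out). The median change was 2.90 against 0.03 over all genes tested, of which 16.3% rose and 13.6% fell. Over all 21, with no filter on detection, the median was 0.28. DKK4, a secreted antagonist of the LRP5/6 co-receptors, had the largest rise of all genes tested. It read 6.83 and 5.58 at 0 h, 11.21 at 24 h and 13.57 and 12.77 at 72 h. This was 125-fold (log2 change 6.97, SE 0.506, adjusted p = 7.04e-06). The control line read 7.83 and 7.95 at 0 h and 8.74 at 72 h, a difference of 0.91 within its array set, well short of every LEF1 line array from 24 h on.

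NOTUM encodes an extracellular esterase that removes the lipid from Wnt ligands and so inactivates them. It read 4.89 and 5.48 at 0 h, 7.80 at 24 h and 10.59 and 11.19 at 72 h. The rise was 52.4-fold (log2 change 5.71, SE 0.166, adjusted p = 2.2e-08), the lowest adjusted p of the 12 largest rises, and its second probe rose by 5.28. Under alternative settings the log2 change of NOTUM was as low as 4.07. APCDD1, a membrane inhibitor of Wnt receptors, was already well expressed before induction, at 8.69 and 8.98. It reached 12.57 at 24 h and 13.54 and 13.72 at 72 h (log2 change 4.80, SE 0.295, 27.8-fold). NKD1, which binds Dishevelled and damps the signal inside the cell, read 7.39 and 7.94 at 0 h, 10.03 at 24 h and 11.89 and 12.38 at 72 h (log2 change 4.47, SE 0.240, 22.1-fold). For each of these genes both 72 h arrays lay above the 24 h array, which lay above both 0 h arrays.

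DKK3 and DKK1, further members of the Dickkopf family, were not detected at 0 h. DKK3 read 4.38 and 4.25 at 0 h and 8.51 and 8.71 at 72 h, at least 8.26-fold higher (log2 change 4.30, SE 0.155). DKK1, a secreted LRP5/6 antagonist, read 4.46 and 4.45 at 0 h, 6.36 at 24 h and 7.44 and 7.26 at 72 h, at least 3.44-fold higher (log2 change 2.90, adjusted p = 8.4e-05). Without background correction the change was 2.44 for DKK3 and 1.34 for DKK1. AXIN2, the scaffold of the beta-catenin destruction complex and a standard readout of the pathway, started high and moved less. It read 11.10 and 11.30 at 0 h, 11.21 at 24 h and 12.52 and 12.59 at 72 h (log2 change 1.36, SE 0.170, adjusted p = 0.000267), so that its 24 h array lay between the 0 h arrays. ZNRF3, a ubiquitin ligase that clears Frizzled receptors, rose by 1.13, while its relative RNF43 changed by 0.20 (adjusted p = 0.614). The 2 members that fell were KREMEN2, a receptor for Dickkopf proteins, by 1.05, and TRABD2A, a protease that cleaves Wnt ligands, by 1.09.

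**Figure D2:**
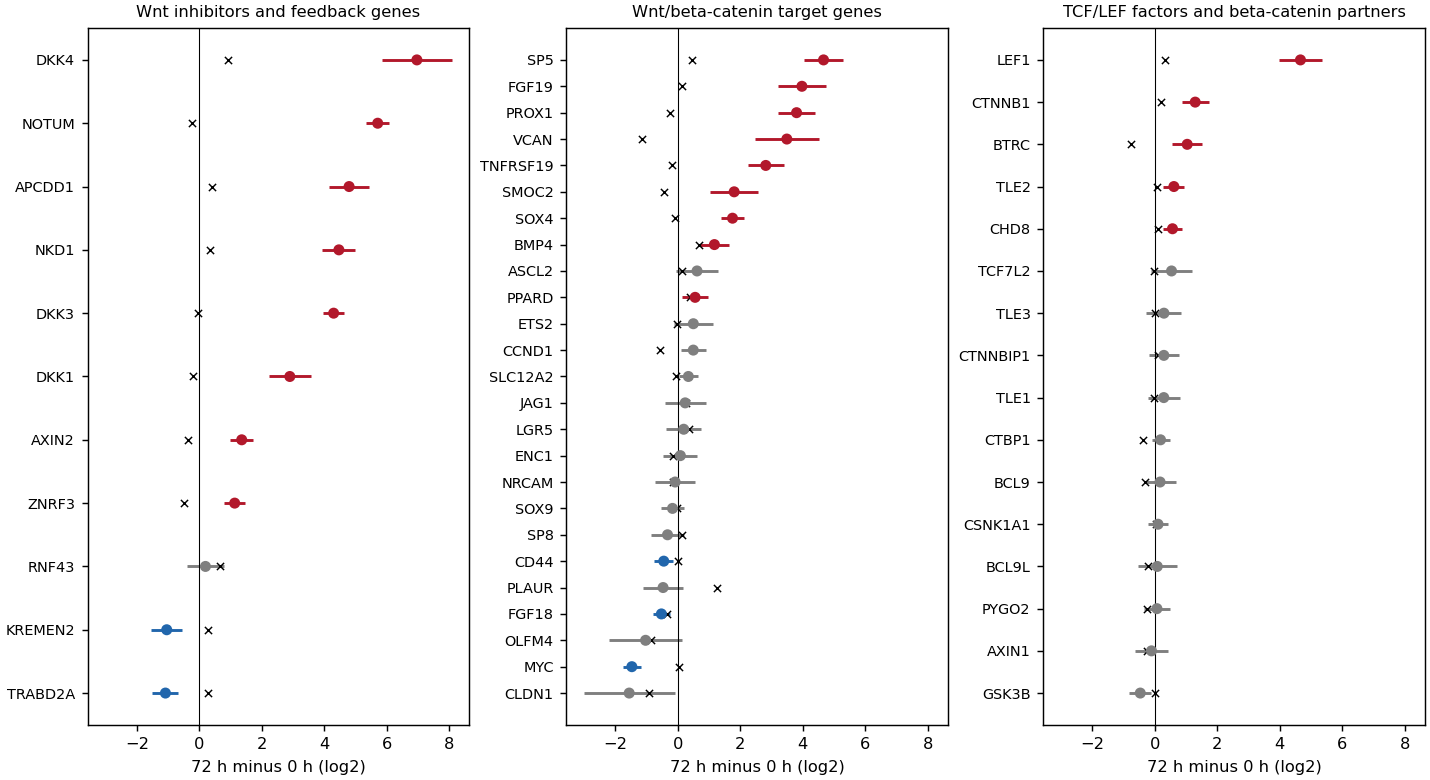
Change from 0 h to 72 h (log2) for the tested members of 3 Wnt lists, with 95% confidence intervals of the limma fit, red where higher, blue where lower and grey where not past an adjusted p of 5%; crosses mark the control line's 72 h minus 0 h difference (1 array each, same array set). Rises reach 6.97 for DKK4 in the inhibitor list, 4.67 for SP5 among the target genes and 4.66 for LEF1 among the TCF/LEF factors.

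The list of other Wnt/beta-catenin target genes rose in part. Of 25 tested, 9 (36%) rose and 3 (12%) fell (7 to 9 and 1 to 2 with 1 array left out), with a median of 0.34. Over all genes tested 16.3% rose and 13.6% fell, so the share of falls is near that of all genes. SP5, a zinc finger factor, rose most. It read 4.51 and 4.27 at 0 h, 6.23 at 24 h and 8.99 and 9.12 at 72 h, at least 11.2-fold higher (log2 change 4.67, SE 0.283, adjusted p = 2.37e-06; 2.74 without background correction). The growth factor gene FGF19 rose by 3.97, the homeobox gene PROX1 by 3.80, the matrix proteoglycan gene VCAN by 3.49 and the receptor gene TNFRSF19 by 2.82. SMOC2, a stem cell marker of the crypt, rose by 1.80, SOX4 by 1.75, BMP4 by 1.17 and PPARD by 0.55. FGF19, not detected at 0 h (4.66 and 5.13), read 5.66 at 24 h and 9.36 and 8.37 at 72 h, and its change was 2.33 without background correction. PROX1 had reached 8.66 at 24 h on the way from 6.55 and 6.62 to 10.34 and 10.44.

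MYC, a classical target of the pathway in colon cells, went the other way. It read 11.60 and 11.58 at 0 h, 10.56 at 24 h and 10.22 and 10.01 at 72 h. Its log2 change was -1.47 (SE 0.128, adjusted p = 2.35e-05). The second MYC probe fell by 1.68. The control line read 11.83 and 11.85 at 0 h and 11.86 at 72 h. CD44, a surface glycoprotein, fell by 0.45 and FGF18 by 0.53. The crypt genes LGR5 (change 0.19, adjusted p = 0.610), ASCL2 (0.61, adjusted p = 0.159) and OLFM4 (-1.03, adjusted p = 0.165) did not pass, nor did CCND1 (0.49, adjusted p = 0.059) and SOX9 (-0.17, adjusted p = 0.490).

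TCF/LEF letters near the start were looked for in the 9 members of the Wnt inhibitor and target lists that rose and had a promoter in the table. SP5 and DKK1 were the 2 with a match. Their promoters and that of DACH1, the second largest rise, are shown over the 250 bases before the start, from RefSeq (GRCh38.p14). They are read toward the gene, with matches to CTTTGAT or CTTTGAA on either strand in capitals. DACH1 is on neither Wnt list.
SP5 (chr2:170715087-170715336, plus strand): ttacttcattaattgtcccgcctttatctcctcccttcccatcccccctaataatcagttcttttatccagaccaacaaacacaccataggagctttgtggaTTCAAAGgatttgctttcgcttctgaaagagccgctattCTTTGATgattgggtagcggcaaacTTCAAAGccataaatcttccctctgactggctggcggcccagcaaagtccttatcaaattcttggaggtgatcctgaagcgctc
DKK1 (chr10:52314031-52314280, plus strand): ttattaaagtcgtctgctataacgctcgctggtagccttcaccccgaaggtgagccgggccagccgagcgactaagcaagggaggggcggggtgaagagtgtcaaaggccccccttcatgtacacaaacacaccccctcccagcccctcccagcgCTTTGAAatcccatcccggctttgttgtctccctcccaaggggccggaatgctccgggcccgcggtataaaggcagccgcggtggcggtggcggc
DACH1 (chr13:71867205-71867454, minus strand): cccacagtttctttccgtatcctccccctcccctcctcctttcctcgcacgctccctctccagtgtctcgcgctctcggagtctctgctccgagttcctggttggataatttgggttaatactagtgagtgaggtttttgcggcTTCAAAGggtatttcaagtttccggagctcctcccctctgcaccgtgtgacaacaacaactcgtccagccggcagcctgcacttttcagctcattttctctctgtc
Counted from the gene's start as 0, SP5 held 3 matches, beginning at -148, -109 and -84, DKK1 held 1 at -95, and DACH1 held 1 at -106 and another, past the stretch shown, at 14. Among the other genes of the 12 largest rises with a promoter in the table, TRIM51 held 1 at -110 and TRIM49C 1 at 39. TRIM48, TRIM49D2, RASL11B, SLC40A1 and FRG2B held none. Over windows of 300 bases (250 before to 50 after the start), 3.92% of the 8350 tested genes with a promoter in the table held a match on either strand. The share was 3.77% of 1354 genes that rose and 4.0% of 1100 that fell. Among genes that rose at least 4-fold it was 12 of 116 (10.3%), and among those that fell at least 4-fold 2 of 58 (3.45%). Over all 27305 promoters in the table, tested or not, the share was higher than over tested genes, at 6.98%. Of the 151 genes that rose at least 4-fold, 64 were not detected on either 0 h array. These shares were not compared by a test. Of 17 Wnt inhibitor and target genes that rose, 9 had a promoter in the table, and 2 of these held a match. The rest, among them DKK4, NOTUM, NKD1 and AXIN2, had no promoter there and were not examined. A match describes letters in this window and is not a measured binding site.

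Wnt ligands and receptors moved little. Of 13 tested of 35 on the array, 4 rose (FZD3, RYK, WLS and WNT4, by 0.42 to 0.76) and 2 fell, against 16.3% and 13.6% of all genes tested. FZD3 changed by 0.36 without background correction. The rises counted 2 with any of the 4 arrays left out. The larger fall was WNT10A, by 1.46 (adjusted p = 0.00754), which read 6.64 and 6.28 at 0 h and was not detected at 72 h. Leaving out 0 h replicate 1 or either 72 h array ended its call (adjusted p = 0.071, 0.059 and 0.058), and the change was -0.59 without background correction. FZD4, a Wnt receptor, fell by 0.88. WLS, which carries Wnt ligands to the cell surface, rose by 0.61, a call lost without 0 h replicate 2 or 72 h replicate 2 (adjusted p = 0.073 and 0.058).

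The 12 largest rises ran from 5.11 to 6.97 on the log2 scale, and 6 of the 12 genes were not detected on either 0 h array. All 12 were detected on both 72 h arrays and on the 24 h array, and the control line differed by -0.69 to 0.91. DACH1, which encodes a nuclear factor of the dachshund family, read 5.03 and 5.71 at 0 h, 10.29 at 24 h and 11.88 and 12.13 at 72 h (log2 change 6.63, SE 0.258). Its second probe rose less, by 2.00, and the mean of both probes by 4.31. RASL11B, a small GTPase of the Ras family, read 4.39 and 5.60 at 0 h, 9.40 at 24 h and 10.53 and 10.40 at 72 h (log2 change 5.47). FGF20, a fibroblast growth factor, was at least 24.7-fold higher at 72 h, with 6.65 at 24 h on the way from 5.06 and 4.67 to 10.80 and 9.59. SLC40A1, the iron exporter ferroportin, read 4.51 and 4.86 at 0 h, 10.80 at 24 h and 10.14 and 9.45 at 72 h, at least 18.8-fold higher. Among the 12 it is the gene whose 24 h array lay above both 72 h arrays. Without background correction the change was 3.52 for FGF20 and 3.22 for SLC40A1.

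Members of a primate TRIM family stood among or near the largest rises, as did a family member of FRG2 and the pseudogene GRM5P1. TRIM51 read 6.54 and 5.16 at 0 h, 11.28 at 24 h and 12.66 and 11.85 at 72 h (log2 change 6.41). TRIM48 rose by 6.08, TRIM49C by 5.62, TRIM49D2 by 5.15 and TRIM49D1 by 4.97. These genes have near-identical copies, so the probes may read several of them, and which copy rose is uncertain. Of 9 members of the TRIM list on the array, 4 were tested, all those just named except TRIM49D2, which is not on the list, and the other 5 did not reach the detection filter. FRG2B, which has near-identical relatives too, read 4.54 and 4.49 at 0 h, 8.41 at 24 h and 11.28 and 8.39 at 72 h, the widest gap between the 72 h arrays among the 12. GRM5P1 was at least 47.3-fold higher (log2 change 6.26). Without background correction the change was 4.41 for GRM5P1, 3.38 for FRG2B and 3.19 for TRIM49D2.

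**Figure D3:**
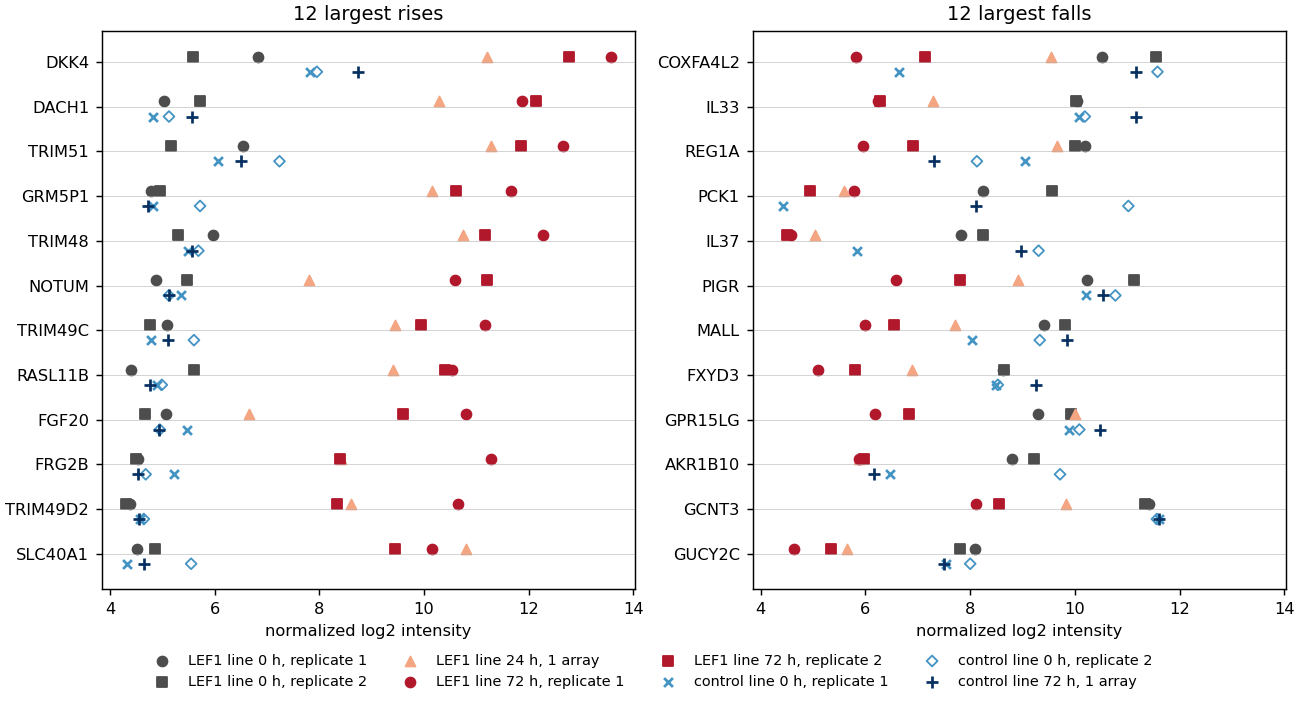
Normalized log2 intensity of the 12 genes with the largest rise (left) and the 12 with the largest fall (right) on each array of the LEF1 line at 0 h, 24 h and 72 h, with the control line's arrays below each gene's row. Every gene on the left lies higher at 72 h than at 0 h on both arrays, and the control line's 2 arrays at 0 h lie far apart for COXFA4L2, PCK1, IL37 and AKR1B10 on the right.

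The 12 largest falls ran from -2.96 to -4.56 on the log2 scale, and 2 of the 12, FXYD3 and MALL, are on the list of enterocyte and brush border genes. PIGR, which carries IgA across the epithelium, read 10.23 and 11.13 at 0 h, 8.91 at 24 h and 6.58 and 7.81 at 72 h (log2 change -3.49, 11.2-fold lower). GCNT3, a glycosyltransferase of mucin cores, read 11.42 and 11.34 at 0 h, 9.84 at 24 h and 8.11 and 8.55 at 72 h (log2 change -3.04, SE 0.274). GUCY2C, the guanylin receptor, was detected on both 0 h arrays (8.10 and 7.80) and on neither 72 h array, at least 5.36-fold lower. FXYD3, a regulator of the sodium pump, fell by 3.19. GPR15LG, a ligand of GPR15 made by colonic epithelium, changed by -3.10, as did AKR1B10, an aldo-keto reductase. GPR15LG read 10.01 at 24 h, no lower than its 9.29 and 9.92 at 0 h. REG1A, a secreted lectin, fell by 3.67 (10.19 and 10.00 to 5.95 and 6.91), and the control line too was lower at 72 h, with a difference of -1.73. Without background correction the change was -1.55 for GUCY2C and -1.92 for FXYD3.

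AKR1B10 lost its call without the array set term (adjusted p = 0.0550), as did PCK1 (adjusted p = 0.129). IL33, an alarm cytokine of epithelial nuclei, read 10.03 and 10.02 at 0 h, 7.28 at 24 h and 6.23 and 6.28 at 72 h (log2 change -3.77, SE 0.408, adjusted p = 0.000101). IL37, an anti-inflammatory cytokine of the same family, was detected at 0 h (7.83 and 8.24) and not at 24 h or 72 h. It was at least 5.70-fold lower, and without 72 h replicate 2 its adjusted p was 0.055. COXFA4L2, which encodes a mitochondrial protein and was formerly named NDUFA4L2, had the largest fall, 10.52 and 11.54 at 0 h, 9.55 at 24 h and 5.81 and 7.14 at 72 h (log2 change -4.56, SE 0.779, adjusted p = 0.00175). PCK1, a gluconeogenic enzyme, fell by 3.54, a call lost without either 0 h array or 72 h replicate 2 (adjusted p = 0.058 to 0.181). Without background correction the change was -1.78 for IL37 and -2.19 for PCK1. MALL, a membrane proteolipid, read 9.40 and 9.81 at 0 h, 7.72 at 24 h and 5.99 and 6.54 at 72 h (log2 change -3.34).

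The list of colonic epithelial identity fell in part. Of 13 genes, 7 (53.8%) fell and 1 (7.69%) rose, against 13.6% and 16.3% of all genes tested. The median change was -0.80, and 6 to 7 fell and 0 rose with 1 array left out. GPA33, a surface antigen of intestinal epithelium, read 11.89 and 12.21 at 0 h, 10.66 at 24 h and 9.07 and 9.21 at 72 h (log2 change -2.91, SE 0.331). CDH17, the liver-intestine cadherin, read 11.75 and 12.32 at 0 h, 11.39 at 24 h and 9.13 and 9.53 at 72 h (log2 change -2.71). LGALS4, a galectin, fell by 2.60 and VIL1, the brush border protein villin, by 1.68. CDH1, which encodes E-cadherin, read 11.30 and 11.52 at 0 h and 11.42 and 11.53 at 72 h, so that the groups overlapped (change 0.06, 95% interval -0.27 to 0.40, adjusted p = 0.782). KRT8 and CDX2 did not pass either (0.30 and -0.63, adjusted p = 0.155 and 0.103). In bulk arrays fewer cells of a type and less RNA per cell cannot be told apart.

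Among goblet and secretory genes, 10 of 20 tested (50%) fell and 1 (5%) rose, against 13.6% and 16.3% of all genes tested. The median change was -0.94, and 6 to 7 fell and 1 rose with 1 array left out. MUC13, a membrane mucin, read 10.10 and 10.06 at 0 h, 9.08 at 24 h and 7.51 and 7.85 at 72 h (log2 change -2.40, SE 0.189, adjusted p = 1.23e-05). The goblet cell factor SPDEF fell by 2.06. AGR3, a disulphide isomerase of secretory cells, fell by 2.16, the sialyltransferase ST6GALNAC1 by 1.71 and the secretory lineage factor ATOH1 by 1.32. SYTL2, which tethers vesicles, was the member that rose, from 6.96 and 6.81 to 11.36 and 11.67, with 10.67 at 24 h (log2 change 4.63). Its second probe rose by 1.94. REG4 and TFF1 did not pass (-0.09 and -1.12, adjusted p = 0.898 and 0.298).

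Of 8 tested enterocyte and brush border genes, of 27 on the array, 5 (62.5%) fell and 0 rose. The share of falls over all genes tested was 13.6%, and 4 to 5 members fell with 1 array left out. Over all 27 with no filter the median change was -0.11, against -1.68 over the 8. CA12, a carbonic anhydrase, read 10.51 and 10.74 at 0 h, 8.90 at 24 h and 7.86 and 7.70 at 72 h (log2 change -2.84, SE 0.162, adjusted p = 1.49e-06). DPP4, a brush border peptidase, fell by 2.40. CEACAM1 and CEACAM6 did not pass (0.35 and -0.50, adjusted p = 0.120 and 0.446).

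Of 14 tested epithelial and intestinal transcription factors, 7 (50%) fell and 2 (14.3%) rose, but 0 to 2 fell with 1 array left out. Over all genes tested 13.6% fell and 16.3% rose. FOXA1, a pioneer factor, rose from 10.54 and 10.73 to 12.22 and 12.19, with 11.62 at 24 h (log2 change 1.57, SE 0.210, adjusted p = 0.00041). HNF4G, a nuclear receptor of enterocytes, fell by 0.99 and KLF4, a factor of differentiated cells, by 1.03. HNF4G lost its call without 0 h replicate 1 or 72 h replicate 1 (adjusted p = 0.102 and 0.061), and its change was -0.51 without background correction. Of 21 tested junction genes, 6 (28.6%) fell and 2 (9.52%) rose (0 to 1 and 1 to 2 with 1 array left out). The desmosome gene DSP rose by 1.29, the claudin gene CLDN3 fell by 1.87 and GJB2, a gap junction connexin, by 1.22. GJB2 lost its call without 0 h replicate 1 or 72 h replicate 1 (adjusted p = 0.080 and 0.090).

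Mesenchymal genes were mostly not detected, and 7 of 23 on the array were tested. Over all 23 with no filter the median change was 0.03, against 0.60 over the 7. Of the 7 tested, 3 (42.9%) rose and 0 fell (1 to 2 rose with 1 array left out), where 16.3% of all genes tested rose. NRP1, a co-receptor for semaphorins and VEGF, read 6.93 and 6.24 at 0 h, 9.63 at 24 h and 10.49 and 10.53 at 72 h (log2 change 3.92, SE 0.290, adjusted p = 8.11e-06), and its second probe rose by 1.70. COL3A1, a fibrillar collagen, was not detected at 0 h and was at least 1.06-fold higher at 72 h. Its rise of 1.32 fell to 0.57 without background correction. It was lost without 72 h replicate 1 (adjusted p = 0.072). SNAI2, a repressor of epithelial genes, rose by 0.84, a call lost without any 1 of 6 LEF1 line arrays (adjusted p = 0.051 to 0.269), with 0.30 without background correction. VIM, the mesenchymal filament vimentin, changed by -0.41 (95% interval -0.93 to 0.11, adjusted p = 0.219).

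Of 20 tested matrix, protease and integrin genes, 4 (20%) rose and 0 fell (1 to 5 rose with 1 array left out), a share of rises near the 16.3% of all genes tested. ADAM10, a sheddase, read 8.24 and 6.58 at 0 h and 9.31 and 8.08 at 72 h, with the replicates further apart than the change of 1.28, and its adjusted p was 0.109 without the replicate block. The integrin subunit genes ITGA1, ITGAV and ITGB1 rose by 1.27, 0.77 and 0.66. ITGA1 was not detected on either 0 h array and was at least 1.68-fold higher at 72 h. ITGA1 was lost without 0 h replicate 2 or 72 h replicate 1 (adjusted p = 0.150 and 0.160) and changed by 0.51 without background correction, and ITGB1 without 0 h replicate 1 or 72 h replicate 1 (adjusted p = 0.066 and 0.073). FAP, a surface protease of activated fibroblasts that is on the list of other cell types, fell from 8.31 and 7.80 to 6.50 and 6.34 (adjusted p = 0.005, and 0.060 without 0 h replicate 1 and 0.058 without 72 h replicate 1), with a change of -1.06 without background correction. ACTA2 and ALB did not pass (-0.58 and -0.36, adjusted p = 0.155 and 0.0999).

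Of 11 Eph receptors and ephrins tested, 2 (18.2%) rose and 3 (27.3%) fell (2 and 1 to 2 with 1 array left out), where 16.3% and 13.6% of all genes tested did. EPHB6, a receptor without kinase activity, read 6.08 and 6.99 at 0 h, 6.41 at 24 h and 8.90 and 9.59 at 72 h (log2 change 2.71, SE 0.257). EPHA3 rose by 1.41 from below detection, at least 1.06-fold, with 0.71 without background correction. EFNB1, a ligand of EPHB receptors, fell by 1.59, with a change of -0.86 without background correction. EPHB3, a receptor of crypt base cells, changed by -0.62 with a 95% interval of -1.92 to 0.68 (adjusted p = 0.463). Among 18 tested response genes of the Notch, BMP and TGF-beta pathways, 7 (38.9%) rose and 3 (16.7%) fell. With 1 array left out 3 to 4 rose and 1 to 2 fell. BAMBI, a decoy receptor for TGF-beta signals, read 8.89 and 8.96 at 0 h, 8.80 at 24 h and 11.23 and 10.75 at 72 h (log2 change 2.07). SMAD9 rose by 1.36 and the BMP response gene ID1 by 1.01, and the Notch target HES1 fell by 1.13.

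**Figure D4:**
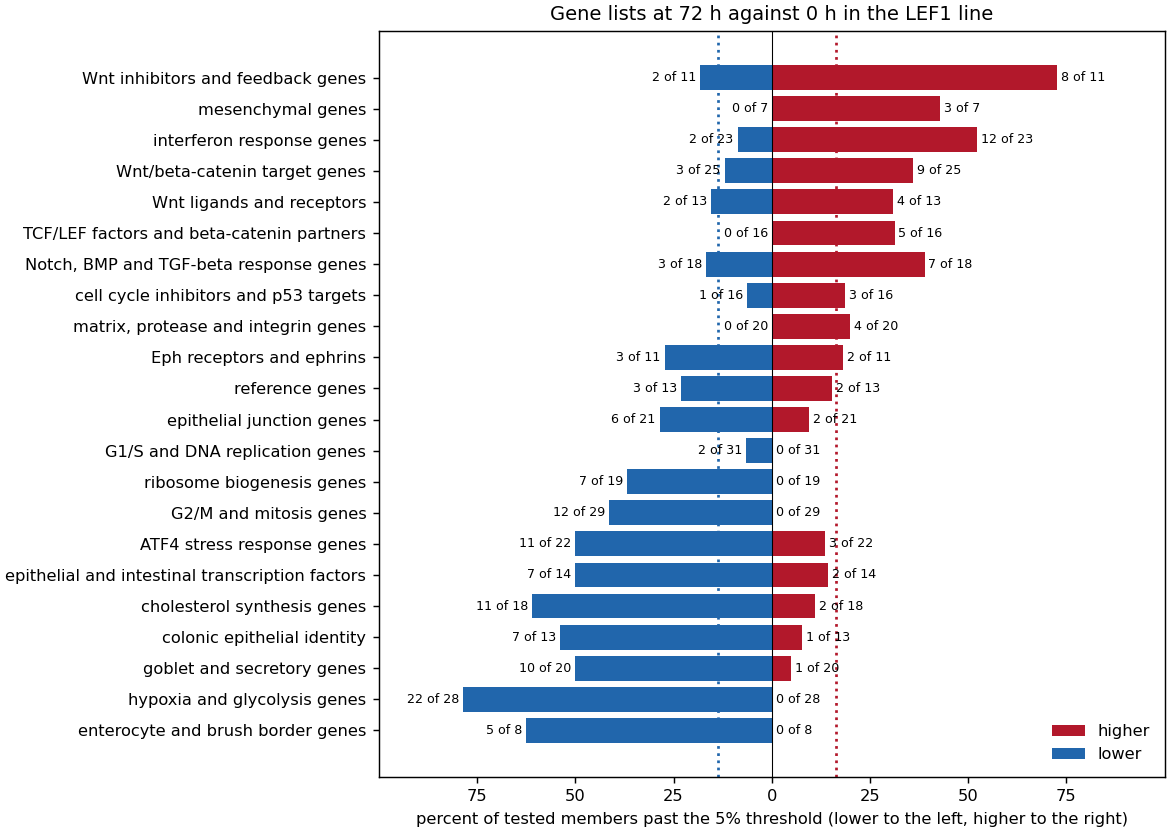
Percent of the tested members of each gene list past an adjusted p of 5% at 72 h against 0 h, higher to the right and lower to the left, with counts, in order of the list's median change; dotted lines mark the shares over all genes tested (16.3% higher and 13.6% lower). Wnt inhibitors stand at the top with 8 of 11 higher, and hypoxia and glycolysis genes have the highest share lower, 22 of 28.

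Genes of hypoxia and glycolysis fell together in the LEF1 line. Of 28 tested, 22 (78.6%) fell and 0 rose, against 13.6% and 16.3% of all genes tested. The median change was -1.04, and 14 to 15 fell with 1 array left out. SLC2A1, the glucose transporter GLUT1, read 10.45 and 10.62 at 0 h, 9.74 at 24 h and 9.09 and 9.28 at 72 h (log2 change -1.34, SE 0.127, adjusted p = 3.82e-05). PFKFB4, a regulator of glycolytic flux, fell by 1.17, the hypoxia target STC2 by 1.25, the mTOR inhibitor DDIT4 by 2.91 and lactate dehydrogenase A (LDHA) by 1.00. NDRG1, a hypoxia-induced stress protein, fell by 2.36. VEGFA and ADM did not pass (-0.61 and -0.62, adjusted p = 0.268 and 0.325). The control line's arrays differed among themselves on these genes. The median level of the 28 was 9.23 on control 0 h replicate 1, 10.83 on control 0 h replicate 2 and 10.93 on the control 72 h array, against 10.46 and 10.52 at 0 h, 9.96 at 24 h and 9.22 and 9.50 at 72 h in the LEF1 line. Control 0 h replicate 1 thus stood near the LEF1 line at 72 h, and control 0 h replicate 2 near control 72 h, in the other array set. The part of culture conditions in the fall was not tested.

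**Figure D5:**
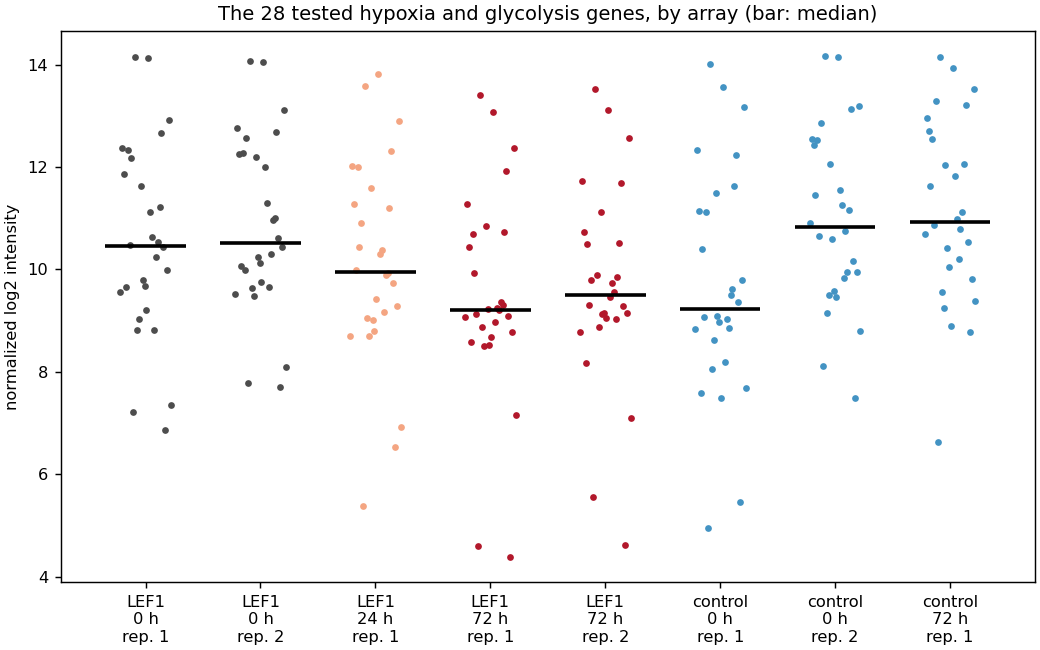
Normalized log2 intensity of the 28 tested hypoxia and glycolysis genes on 8 arrays, 1 point per gene, with the median as a bar. The medians fall from 10.46 and 10.52 at 0 h to 9.22 and 9.50 at 72 h in the LEF1 line, while the control line's 0 h arrays stand at 9.23 and 10.83 and its 72 h array at 10.93.

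Cholesterol synthesis genes were lower in part, with 11 of 18 tested (61.1%) down and 2 (11.1%) up and a median of -0.65. With 1 array left out 5 to 8 were down and 1 to 2 up. Over all genes tested 13.6% fell and 16.3% rose. FDPS, which makes farnesyl diphosphate, read 10.87 and 11.09 at 0 h, 10.34 at 24 h and 9.36 and 9.63 at 72 h (log2 change -1.49, SE 0.158). MVD, of the mevalonate pathway, fell by 1.27, while the sterol reductase gene TM7SF2 rose by 0.88. The control line's median difference for this list was -0.06. Among 22 ATF4 stress response genes, 11 (50%) fell and 3 (13.6%) rose (2 to 12 and 2 to 3 with 1 array left out). TRIB3, a pseudokinase of the stress response, fell by 1.69 and the serine pathway enzyme SHMT2 by 1.12. The 3 that rose were the amino acid transporter subunits SLC7A5 and SLC3A2, by 1.08 and 0.72, and the chaperone HSPA5, by 0.95.

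Genes of DNA replication changed little at 72 h. Of 31 tested, 2 (6.45%) fell and 0 rose (0 to 1 fell with 1 array left out), against 13.6% and 16.3% of all genes. Those were RFC3, by 0.62, and TK1, by 0.58. Without 72 h replicate 1 the RFC3 change was -0.33. Their adjusted p was 0.131 and 0.0711 without the replicate block. The list's median was -0.21, with -0.90 between the control line's 72 h array and its 0 h replicate 1. The control line's 0 h arrays lay apart on this list. Its median level was 10.26 on 0 h replicate 1, 8.79 on 0 h replicate 2, of the other array set, and 9.38 at 72 h. Of 29 mitosis genes, 12 (41.4%) fell and 0 rose (3 to 5 fell with 1 array left out, and 5 without the replicate block). CDC25C, the phosphatase that activates CDK1, read 8.54 and 8.06 at 0 h, 7.92 at 24 h and 7.41 and 6.83 at 72 h (log2 change -1.18, SE 0.206), HMMR fell by 0.64 and the spindle kinesin KIF2C by 0.88, the last lost without 0 h replicate 2 or 72 h replicate 2 (adjusted p = 0.071 and 0.057). Of 19 ribosome biogenesis genes, 7 (36.8%) fell and 0 rose (3 to 4 fell with 1 array left out). Among those that fell were FBL, by 0.95, PES1, by 0.98, and NOLC1, by 1.02. NOLC1 was lost without 0 h replicate 1 or 72 h replicate 1 (adjusted p = 0.058 and 0.062).

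Of 16 cell cycle inhibitors and p53 targets, 3 (18.8%) rose and 1 (6.25%) fell (2 to 4 and 0 to 1 with 1 array left out), against 16.3% and 13.6% of all genes tested, so that these counts are no result about the list. TP53INP1, a stress protein, read 7.50 and 7.33 at 0 h, 8.82 at 24 h and 9.18 and 9.55 at 72 h (log2 change 1.95, SE 0.165, adjusted p = 1.97e-05). TP53I3, a quinone reductase, rose by 1.90 in the same way, from 7.77 and 7.70 to 9.53 and 9.72. The death receptor gene TNFRSF10B rose by 0.54, a call lost without either 0 h array or 72 h replicate 1 (adjusted p = 0.070 to 0.140), and the mean of its probes changed by 0.27. GDF15 fell by 1.08. CDKN1A, the inhibitor p21, read 10.33 and 10.59 at 0 h and 10.36 and 10.30 at 72 h (change -0.13, 95% interval -0.55 to 0.29, adjusted p = 0.635).

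Interferon response genes rose in part, 12 of 23 tested (52.2%), with 2 (8.70%) lower (5 to 7 and 1 with 1 array left out). Over all genes tested 16.3% rose and 13.6% fell. IFI6, a mitochondrial interferon-induced protein, read 7.60 and 7.85 at 0 h, 8.50 at 24 h and 10.37 and 10.65 at 72 h (log2 change 2.78, SE 0.181, adjusted p = 3.27e-06), and it was 1.13 higher at 72 h in the control line too. IFI44 rose by 1.96, with its highest value, 8.16, at 24 h, and by 1.02 without background correction. IFI35 fell by 1.32. The list's median change was 0.46, and the control line's single arrays differed by 0.48. Of 13 reference genes, 2 (15.4%) rose and 3 (23.1%) fell, with 0 and 1 when any of the 4 arrays was left out. The largest change was that of HPRT1, which fell by 1.03, and ACTB changed by -0.09 (adjusted p = 0.596).

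The single 24 h array showed which differences of the named genes were visible at that time, and 1 array cannot establish an order of events. Over the 12 largest rises the median 24 h difference in replicate 1 was 4.56, against 6.21 at 72 h in the same replicate, and over the 12 largest falls -1.71 against -3.44. Both share the 0 h array, so the values are given side by side and not compared by a test. The 24 h differences of the 12 rises ran from 1.59 for FGF20 to 6.29 for SLC40A1. Genes with little difference at 24 h and a large one at 72 h were AXIN2 (0.11 and 1.42), BAMBI (-0.09 and 2.34) and EPHB6 (0.33 and 2.83). FGF19 stood at 1.00 and 4.70.

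Time in culture, with the drug as the labels give it, was checked with the control line's 72 h array and its 0 h replicate 1, of the same array set. Of the 1664 genes that rose in the LEF1 line, 1.38% were at least 2-fold higher in the control line at 72 h, against 2.75% of all genes tested. That share was 2.52% of the 595 genes that rose at least 2-fold and 3.97% (6 genes) of the 151 that rose at least 4-fold. Of the 1386 that fell, 0.361% were at least 2-fold lower in the control line, against 1.78% of all genes tested, and 7.58% at least 2-fold higher. Among the 74 genes that fell at least 4-fold, 28 (37.8%) were at least 2-fold higher in the control line and 2 (2.70%) at least 2-fold lower. Those shares rest on control 0 h replicate 1. Replicate 2 of the control line at 0 h read 11.58 against 6.65 for COXFA4L2, 11.02 against 4.43 for PCK1 and 9.72 against 6.48 for AKR1B10.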

How the data were processed

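Illumina bead arrays of LS174T cells were used as deposited. The authors deposited unnormalized log2 probe intensities beside a column of detection p-values for each array, per the file headers. That they are on a log2 scale follows from their range. They also deposited a matrix of normalized log2 values, used as an alternative. Which scanner software was used is not given in the sources used here.

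Of 47323 probes, 6 had a missing or infinite value and were left out. Of the rest, 30110 carry 1 gene in the platform annotation, 8 several and 17199 none. Over all 27 arrays, normexp background correction (negative controls estimated through the detection p), an offset of 16 and quantile normalization were applied (limma 3.58.1, R 4.3.3). A probe had to be detected (p under 0.01) on 2 or more of the 7 LEF1 line arrays. For each gene the brightest such probe over those arrays was taken, which left 10215 genes.

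A limma model held 1 mean for each of 18 groups of line and time, the array set (the form of the detection p) and the replicate number within the LEF1 line, with 7 residual and 3.82 prior degrees of freedom. Other groups with 2 arrays, most of them labelled SNAI1, lend their spread. P-values were adjusted over all 10215 genes by Benjamini and Hochberg's method at 5%. The replicate numbers pair the arrays: across genes, the difference between replicates correlated at 0.633 between 0 h and 6 h, 0.579 between 0 h and 72 h and 0.560 between 6 h and 72 h. The control 72 h and LEF1 24 h arrays have no replicate and got no test. A probe not detected on any array of a group has only a bound there. Its change is given as an at least N-fold difference or, for part of these genes, as a log2 change whose size is uncertain. One array titled 6 h carries 0 h in its time field and was taken as 6 h.

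Named are the 12 largest rises and 12 largest falls that moved the same way in both pairs, the up to 3 genes of each list that had the lowest adjusted p, and further fixed names such as MYC and CDH1; other list members were named after their values were seen. The members and the 24 lists were chosen with earlier results of these data known. Steps were tested on simulated data. Alternatives changed background correction, filter, probe choice, block, array set term, arrays used and the label of the 6 h array, and left out each array in turn.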

Additional observations from a re-analysis of the deposited data

Results flagged for a closer look

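For 8 of the named genes, both replicate pairs of the LEF1 line fell by at least 1 on the log2 scale while the control line's 72 h array stood at least 1 above its 0 h replicate 1. The difference between the lines was not tested, since the control line has 1 array at 72 h. The control difference was 4.52 for COXFA4L2, 3.68 for PCK1, 3.15 for IL37, 1.83 for MALL, 1.498 for PFKFB4, 1.18 for SLC2A1, 1.12 for LGALS4 and 1.08 for IL33. The control line's 0 h replicate 2, of the other array set, read far above replicate 1 for 3 of them, with 11.58 against 6.65 for COXFA4L2, 11.02 against 4.43 for PCK1 and 9.31 against 5.83 for IL37. For LGALS4, replicate 2 at 13.38 stood above the 72 h array at 13.34, with replicate 1 at 12.22. For MALL, replicates 1 and 2 read 8.03 and 9.33, with 9.86 at 72 h. For SLC2A1 they read 9.36 and 10.17, with 10.55 at 72 h. For IL33 they read 10.08 and 10.19, with 11.16 at 72 h, and for PFKFB4 9.62 and 9.95, with 11.12 at 72 h.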

How the results depend on the processing

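The direction of the 90 named genes that passed was kept under every alternative that tested them, all 21 or, for 25 of the 99 named genes, 20. In part this was fixed beforehand. Leaving out the block, the array set term or arrays other than those at 0 h and 72 h does not move the estimated change. Nor does another estimate of the variance. The authors' matrix and the values without background correction are nearly alike, with 3317 and 3319 genes passing. Of the 9 named genes that did not pass, CDH1 (lowest -0.0099) and CDKN1A (highest 0.011) changed sign. Without the replicate block, 1993 genes passed (1108 higher and 885 lower), and with the block but without the array set term 1864 (1074 and 790), against 3050 (1664 and 1386). With 1 array of the LEF1 line left out, the count ran from 1390 to 3050, the higher genes from 795 to 1664 and the lower from 595 to 1386. The other settings gave 2453 to 3320 genes, the lowest with no filter on dim probes. The replicate block changed the call of 6 named genes (ADAM10, CTNNB1, GRHL2, PPIA, RFC3 and TK1) and of no other. Of 90 named genes that passed, 65 passed under all alternatives that tested them, 22 lost their call with some array left out and 13 under another setting. Changes of dim probes were smaller without background correction, with values given above for part of them. The lowest changes under any alternative were 4.07 for NOTUM, 3.76 for RASL11B and 3.83 for TRIM49C. With 2 arrays a group and signal near background for many genes, absence of a call does not show absence of a change.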

Other observations

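Beyond the genes chosen by rule, further genes rose by large amounts, a selection of which is named here after their values were seen. GZMA, the granzyme A of cytotoxic lymphocytes, read 4.40 and 4.42 at 0 h, 4.66 at 24 h and 9.95 and 8.96 at 72 h, at least 14.83-fold higher (log2 change 5.04, SE 0.454; 3.05 without background correction). It was thus near its starting level at 24 h. The alpha-defensin gene DEFA1B rose by 4.25, with 11.82 at 24 h on the way from 8.22 and 7.72. The neuronal serpin gene SERPINI1 rose by 4.89, the somatostatin receptor gene SSTR1 by 4.51, the cystatin gene CST1 by 4.50 and the bone factor gene RUNX2 by 4.05. RBP2, a retinol-binding protein of enterocytes, rose by 4.49. OSBPL6, an oxysterol-binding protein, rose by 4.99, the forkhead gene FOXQ1 by 4.62, the metallothionein gene MT4 by 4.01 and the amino acid transporter gene SLC7A8 by 3.92. OSBPL6, RUNX2 and RBP2 were not detected at 0 h and were at least 14.2-fold, 7.64-fold and 15.5-fold higher at 72 h.

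Further large falls, named in the same way, included RGS10, a regulator of G protein signalling, which fell by 2.86. DDC, the decarboxylase of amine synthesis, fell by 2.61, and the muscle myosin genes MYH13 and MYH4 changed by -2.63 each. MYH13 read 10.37 and 10.91 at 0 h, 9.09 at 24 h and stood near 10 on the control line's arrays (10.13 and 10.18 at 0 h, 10.06 at 72 h). EGLN3, an oxygen sensor on the hypoxia list, fell by 2.44. Its control line values lay apart, at 4.95 and 8.11 at 0 h and 6.64 at 72 h.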
